A study of Mus musculus with 20 samples.

Results

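The established response of erythroid progenitors to erythropoietin (Epo) was measured on 6 arrays: 3 arrays of cells kept with 0.5 U/ml Epo for 5, 6 and 7 h, and 3 arrays of cells kept without Epo for the same hours. They are 6 of the 20 arrays of the study and were chosen by treatment and hour alone, with no use of a measured value. The whole study followed cells with Epo on 12 arrays (0 to 8 h hourly, then 14, 19 and 24 h) and cells without Epo on 8 arrays (0 to 7 h hourly), with 1 array for each treatment and time. Here the 2 arrays of 0 h served as the background between the series and the 6 arrays of 1 to 3 h as the early comparison. The cells were labelled CFU-E, the stage of colony-forming units erythroid. They came from the fetal livers of BALB/c mouse embryos at stage E13.5, after lysis of red cells and magnetic removal of cells bound by antibodies to GR1, CD41, CD11b, CD14, B220, CD4, CD8, Ter119 and by YBM/42. Every group thus shared strain, stage, tissue and sort. The design text describes an hour of starvation in serum-free medium before Epo was added or withheld, whereas the sample labels describe an overnight culture with serum and Epo, so the state of the cells at 0 h is not settled. Nothing in the labels says that the hours came from separate cultures or that embryos were kept apart, so p-values measure only the scatter between arrays of successive hours, which may be technical.

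Epo is the hormone that red cell precursors need from the CFU-E stage onward. It binds a homodimer of its receptor, which activates the kinase JAK2. JAK2 phosphorylates the transcription factor STAT5, and the PI3 kinase to AKT and the RAS to ERK branches run beside it. STAT5 switches on inhibitors that dampen the receptor (CIS and the SOCS proteins) and survival genes, while AKT keeps the FOXO factors out of the nucleus. Without Epo, CFU-E cells stop growing and die.

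Expression was read from the deposited log2 values as 1 probe set for each of 18193 genes. Most markers of the labelled cell type were expressed: on the arrays of 5 to 7 h, Klf1 averaged 12.03 ± 0.28 with Epo and 12.67 ± 0.12 without (SD, n = 3), Tfrc 13.19 ± 0.11 and 13.49 ± 0.02, and Car2 12.79 ± 0.16 and 13.53 ± 0.07. The median gene stood between 4.85 and 4.89 on each of the 6 arrays, and 11 of 12 CFU-E and erythroid markers lay above the median gene in both groups. The exception was the adult globin gene Hba-a1, at 3.35 ± 0.02 and 3.41 ± 0.17. List means of hepatocyte markers, given below, also lay above the median gene, so this rule does not identify the stage. The list means of macrophage, lymphoid, mast cell and stromal markers lay between 3.29 and 3.93 and those of granulocyte and megakaryocyte markers between 4.41 and 4.57, and the sort removes part of these cells. None of these 6 lists had more than 1 gene higher or 3 lower with Epo. Hepatocyte markers were present, with list means of 7.46 to 8.02 with Epo and 6.57 to 6.83 without. Alb stood at 11.10 ± 0.22 with Epo and 10.34 ± 0.08 without, and 9 of the 12 were higher with Epo (median difference 1.08), 6 of them at least 2-fold. The series with Epo held more of them already at 0 h (median 1.45), and from that start none of the 12 differed by the test at 5 to 7 h. Of 64 control probe sets, 45 (70.3%) did not overlap between the groups, with differences from -1.43 to 1.16, and 42 of the 45 pointed the same way at 0 h. The spiked bioB controls were 0.47 to 0.72 higher on the arrays with Epo, and 0.50 to 0.63 higher at 0 h. The part of liver transcripts and of such array offsets in single genes was not tested. Differences were therefore also taken relative to 0 h, and as a change between the early and the late hours, in which a constant offset cancels. The genes named here were picked mostly for large differences, some of them relative to 0 h, so their agreement says little about other genes. Of the 108 genes named here that were called at 5 to 7 h, 98 were called in the same direction relative to 0 h. Cblb, Stat5b, Hbb-bh1, Max, Ttr, Apoa2, Alb, Klf1 and Tfrc were not, and Mpo was called in the opposite direction.

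By 5 to 7 h, 7253 of 18193 genes (39.9%) differed between the series at an adjusted p under 0.05 (limma, paired by hour). With Epo, 3344 (18.4%) were higher and 3909 (21.5%) were lower. A difference of at least 1 on the log2 scale, that is 2-fold, was reached by 780 higher genes (4.29%) and 1291 lower ones (7.10%). Of the 7253 genes, 7212 had the same sign in all 3 pairs. At 0 h, in comparison, the single pair of arrays differed by at least 1 for 551 genes (3.03%), 436 of them higher with Epo (2.40%) and 115 lower (0.632%), with no test possible. The 3 arrays of one group lay wholly above those of the other for 8950 genes (49.2%), so arrays that do not overlap are common among all genes. Of the 780 higher genes, 152 stood at least 1 higher at 0 h too, while 342 had a 0 h difference under 0.5. Of the 1291 lower genes these numbers were 41 and 879. Relative to the 0 h difference, 3520 genes (19.3%) were called, 1446 higher (7.95%) and 2074 lower (11.4%) with Epo, which included 566 of the 780 higher and 1071 of the 1291 lower genes in the same direction. That test takes the 0 h difference from 1 pair of arrays, whose scatter it can only take from the arrays of 5 to 7 h. Without the arrays of 6 h it called 905 genes higher and 1419 lower, in place of 1446 and 2074. In bulk RNA, fewer cells of a type and less RNA per cell cannot be told apart.

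Among the genes with the largest differences, the cholesterol enzyme gene Msmo1 read 11.29, 11.17 and 11.18 with Epo at 5, 6 and 7 h and 7.66, 7.57 and 7.44 without. The 6 arrays did not overlap, and the difference of 3.66 ± 0.08 (SE, n = 3 pairs, adjusted p = 1.84e-10) is 12.6-fold. Fhl1, which encodes a LIM domain protein, read 9.32, 9.38 and 9.03 with Epo and 4.67, 5.12 and 5.11 without, a difference of 4.28 ± 0.13. It had a level of 4.11 and 3.73 at 0 h, so the arrays with Epo stood far above their start, and a dim second probe set of Fhl1 showed no such difference (-0.07). Srxn1, which encodes sulfiredoxin, an enzyme that repairs oxidised peroxiredoxins, read 9.28, 9.13 and 9.07 with Epo and 5.52, 5.60 and 5.73 without, from 5.92 on both arrays at 0 h. Ccnb1ip1, a ubiquitin ligase gene, differed by 4.12 and Gdf3, a growth factor gene of the TGF-beta family, by 3.69. In both, the arrays with Epo stayed near their 0 h level while those without Epo were far below it, at 6.88, 6.54 and 6.49 against 10.03 for Ccnb1ip1 and at 6.52, 6.44 and 6.29 against 9.11 for Gdf3.

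On the side of lower expression, Klhl24 read 4.54, 3.80 and 4.81 with Epo and 9.17, 8.83 and 8.73 without (-4.53 ± 0.17, adjusted p = 3.25e-09). This was the largest called difference in this direction among genes with the same sign in all 3 pairs. Genes known only by a clone, predicted or Riken name were left out of that ranking. Relb, an NF-kB subunit gene, read 4.78, 4.56 and 3.34 with Epo and 8.85, 8.74 and 8.28 without, having been at 2.87 and 2.99 at 0 h. Cyp1a1, a target gene of the aryl hydrocarbon receptor, stood above its 0 h array in both series, at 7.19, 6.79 and 6.57 with Epo from 3.04 and at 11.11, 11.01 and 10.89 without from 2.36. Its level without Epo was 17.8-fold that with Epo (-4.15 ± 0.09). Ndrg1, a stress-responsive gene, read 5.41, 5.38 and 5.18 with Epo against 9.22, 9.10 and 9.04 without, although at 0 h the array with Epo had been the higher one, at 7.43 against 6.19.

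**Figure D1:**
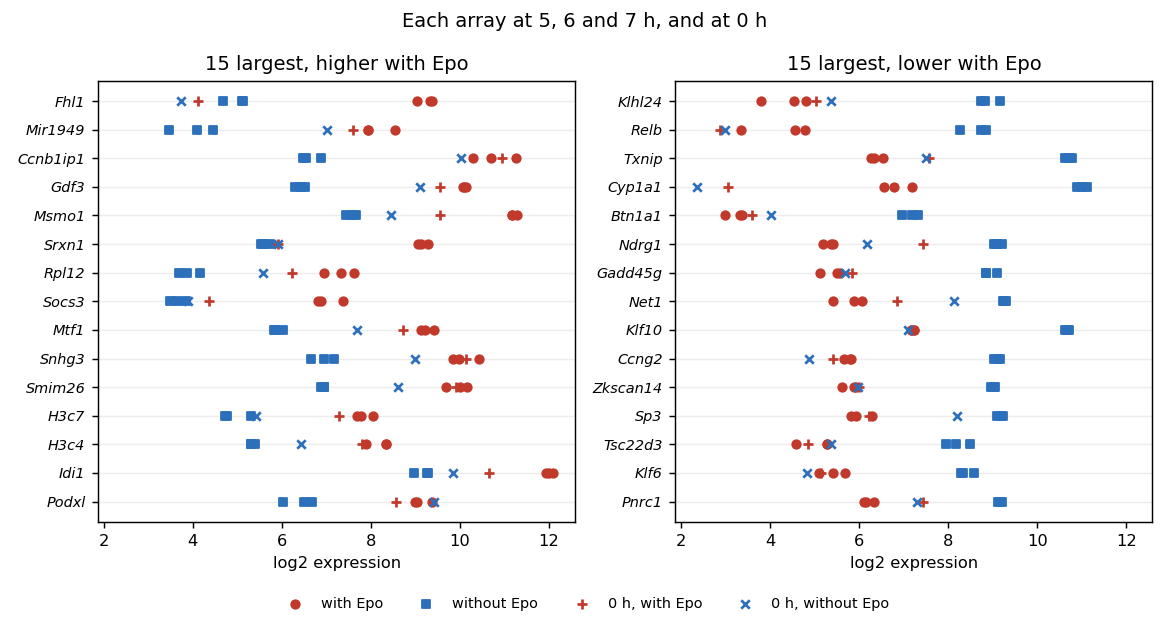
Log2 expression (horizontal axis) of the 15 genes with the largest called difference in each direction, 1 row per gene, with red circles for the 3 arrays with Epo and blue squares for the 3 without at 5 to 7 h, and crosses for the 0 h arrays. The ranking took genes with the same sign in all 3 pairs and left out those known only by a clone, predicted or Riken name. Red and blue do not overlap in any row, and for Klhl24 or Gdf3 the red circles lie nearer the 0 h crosses than the blue squares do.

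Among the genes with a 2-fold difference, more stood away from their 0 h level without Epo than with Epo. Of the 780 genes at least 2-fold higher with Epo, 402 lay at least 1 below the 0 h level without Epo only, 37 lay at least 1 above it with Epo only, 3 met both conditions and 338 neither. Of the 1291 lower genes, 614 lay at least 1 above the 0 h level without Epo only, 53 lay below it with Epo only, 10 met both and 614 neither. Over all 18193 genes, 996 lay at least 1 below the 0 h level without Epo and 837 at least 1 above it. With Epo these counts were 559 and 120. Genes with a 2-fold difference were selected by the difference between the series, so a change in either series is partly built in. The median change of the 780 genes was -0.07 with Epo and -1.03 without, and that of the 1291 genes -0.14 with Epo and 0.97 without. These changes start from 1 array per series and have no test. When the mean of 1 to 3 h was taken as the start, the counts for a change without Epo only were 210 and 384 and those with Epo only 24 and 25. Genes at least 1 above their 0 h array with Epo include Socs3, Fhl1, Srxn1, Csf2rb and Msmo1.

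**Figure D2:**
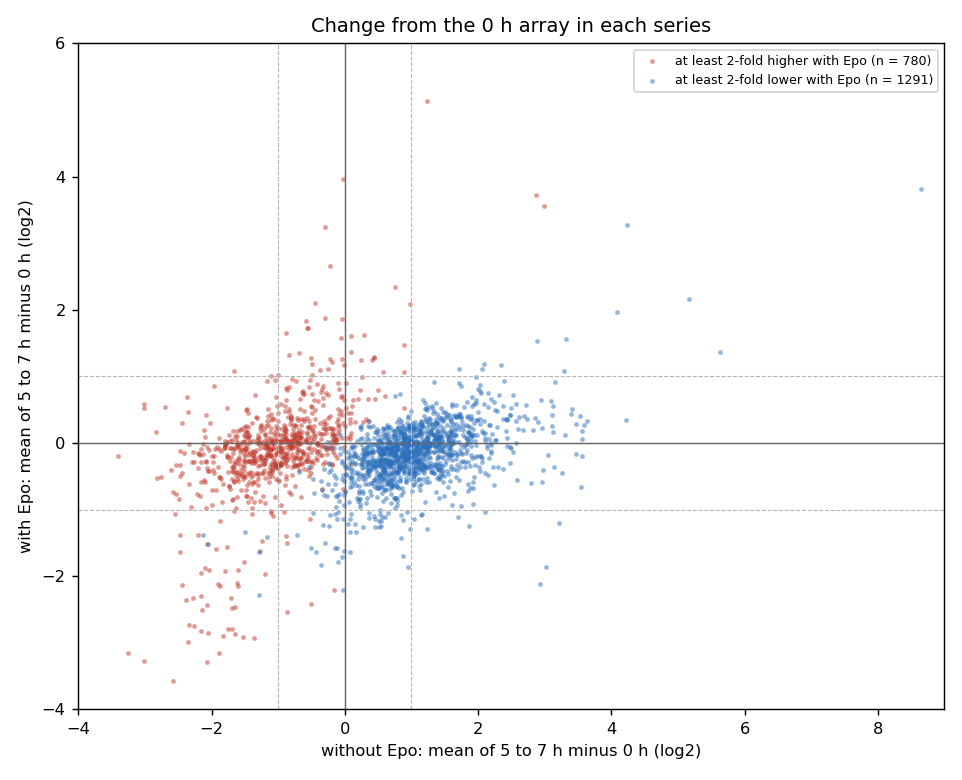
Change from the 0 h array to the mean of 5 to 7 h, in log2 units, without Epo (horizontal axis) and with Epo (vertical axis), for 780 genes at least 2-fold higher with Epo (red) and 1291 lower (blue); dashed lines mark a change of 1. Both clouds are spread along the horizontal axis and centred near 0 on the vertical axis, at medians of -0.07 and -0.14. A small red group lies at the lower left, where both series lay below their 0 h arrays.

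Among the inhibitors of JAK2 and STAT5, the feedback genes Cish, Socs3 and Socs2 were higher with Epo by more than 2 on the log2 scale. Cish, which encodes CIS, an SH2 protein that competes for the receptor, read 8.04, 8.005 and 8.22 with Epo and 5.86, 5.45 and 5.74 without. The arrays did not overlap, and the difference of 2.41 ± 0.11 (SE, n = 3 pairs, adjusted p = 1.18e-08) was 5.3-fold, against 0.11 at 0 h. Socs3, which encodes an inhibitor of JAK2, read 6.81, 6.89 and 7.37 with Epo and 3.84, 3.65 and 3.50 without, 10.3-fold apart (3.36 ± 0.16, adjusted p = 1.72e-08), and both its other probe sets were also higher with Epo (1.27 and 2.35). Socs2, of the same family, differed by 2.68 ± 0.13, but in another manner: its arrays with Epo stayed at 6.89, 7.15 and 7.31, near the 0 h level of 6.81, while those without Epo read 4.42, 4.60 and 4.30 from 6.89. Cblb, a ubiquitin ligase gene, was lower with Epo (-1.17 ± 0.15), with its other probe sets at -0.49 and 0.75. Its difference was not called with the mean of all its probe sets (-0.30, adjusted p = 0.0635). Of the 24 inhibitors measured, 4 were higher and 9 lower, with a median of -0.26 against 0.04 over all genes (18.4% higher and 21.5% lower). The list stood at -0.36 at 0 h, and relative to that start 7 were higher and 3 lower (median 0.09), against 7.95% and 11.4% of all genes.

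The promoters of Cish, Socs3 and Txnip are shown because the difference of these genes was large already at 1 to 3 h and they carry a letter match to a motif of the pathway's factors. Sequences are from RefSeq, build GRCm38.p6, and run 5′ to 3′ on the gene's strand from 250 bases before the annotated start to 30 bases after it. Capitals mark the letters TTCNNNGAA, the core to which STAT5 binds, in Cish and Socs3, and GTAAACA, a core for FOXO factors, in Txnip.
Cish, chr9:107296409-107296688, plus strand: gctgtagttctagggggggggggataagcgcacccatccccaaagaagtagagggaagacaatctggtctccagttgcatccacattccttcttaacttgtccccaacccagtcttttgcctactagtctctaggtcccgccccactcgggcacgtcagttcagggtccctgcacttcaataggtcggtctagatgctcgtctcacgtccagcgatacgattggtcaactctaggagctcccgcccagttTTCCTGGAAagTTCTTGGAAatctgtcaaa
Socs3, chr11:117969337-117969616, minus strand: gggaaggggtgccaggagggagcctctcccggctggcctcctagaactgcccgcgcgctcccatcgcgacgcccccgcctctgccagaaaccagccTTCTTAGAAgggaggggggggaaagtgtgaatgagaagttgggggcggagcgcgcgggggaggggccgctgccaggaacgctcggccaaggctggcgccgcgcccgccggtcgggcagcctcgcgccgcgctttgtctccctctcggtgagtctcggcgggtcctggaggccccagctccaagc
Txnip, chr3:96557707-96557986, plus strand: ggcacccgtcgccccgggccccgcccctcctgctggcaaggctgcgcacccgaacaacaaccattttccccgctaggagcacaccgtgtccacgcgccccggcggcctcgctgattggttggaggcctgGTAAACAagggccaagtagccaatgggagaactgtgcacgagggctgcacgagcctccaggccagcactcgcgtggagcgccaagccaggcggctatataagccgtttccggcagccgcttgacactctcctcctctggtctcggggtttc
The matches in Cish begin at positions 1 and 12 from the start, that in Socs3 begins 154 bases before it and that in Txnip 121 bases before it. Over both strands and 300 bases, 8.30% of all 32851 promoters of the RefSeq table held TTCNNNGAA and 3.65% held GTAAACA. Among promoters of all genes tested the shares were 7.21% and 2.98%. Among promoters of genes at least 2-fold higher with Epo, 7.87% held TTCNNNGAA, and among those of genes at least 2-fold lower 3.43% held GTAAACA. The ATF4 core TGATGCAA was held by 0.68% of promoters of genes tested, the E-box CACGTG by 8.72% and the E2F letters TTTCGCGC by 0.48%. For the 2-fold higher genes these were 0.77%, 11.6% and 0.39%, and for the 2-fold lower genes 0.57%, 9.21% and 1.07%. A match is a description of letters and not a bound site.

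The survival kinase gene Pim1, a known STAT5 target, was higher with Epo. It read 9.27, 9.14 and 9.47 with Epo and 7.19, 7.28 and 7.35 without, the 6 arrays did not overlap, and the difference of 2.01 ± 0.09 (adjusted p = 9.99e-09) faced one of -0.40 at 0 h. Csf2rb, the common beta chain of the receptors for interleukin 3, interleukin 5 and GM-CSF, read 6.50, 7.18 and 7.42 with Epo and 4.62, 4.43 and 3.94 without. At 0 h its array with Epo was the lower one (3.08 against 4.35), so its difference from the 0 h start was 3.98 (adjusted p = 0.000138). A near-identical paralogue exists for Csf2rb in the mouse, and whether its transcript shares the probe set was not tested. Il4ra, the interleukin 4 receptor chain, was also higher (1.22 ± 0.12). Yet of 23 genes listed as STAT5 targets, 8 were higher and 8 lower with Epo, with a median of 0.03 against 0.04 over all genes, and of 23 other cytokine receptor chains 3 were higher and 12 lower (median -0.31, and -0.22 at 0 h). From the 0 h start these counts were 7 and 6 of the STAT5 targets and 2 and 5 of the receptor chains. Over all genes, 18.4% were higher and 21.5% lower (4.29% and 7.1% at least 2-fold), and from the 0 h start 7.95% and 11.4%. List counts at 5 to 7 h and from the 0 h start in the paragraphs below stand against these same shares.

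The receptor itself and its kinase were lower with Epo. Epor read 9.95, 9.84 and 10.07 with Epo and 11.16, 11.34 and 11.44 without, 2.57-fold higher without (-1.36 ± 0.07, adjusted p = 3.14e-08), and -0.39 at 0 h. Jak2 differed by -1.45 ± 0.11 (-0.58 at 0 h) and Pik3r1, the regulatory subunit of PI3 kinase, by -1.79 ± 0.10 (-0.80 at 0 h). Stat5b was lower by the test at -0.60 ± 0.14, but its 0 h difference was -0.81, and Stat5a read 6.52, 7.08 and 7.26 with Epo and 6.97, 7.07 and 7.04 without (difference -0.07 ± 0.13, adjusted p = 0.707). The Stat5a arrays overlapped. Akt1 was higher with Epo, at 8.11, 8.36 and 8.42 against 7.11, 7.06 and 7.25, with 1.16 ± 0.10, after -0.60 at 0 h. Of the 18 pathway components measured 2 were higher and 10 lower (median -0.33, and -0.45 at 0 h), and from the 0 h start 3 were higher and 4 lower (median 0.19).

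**Figure D3:**
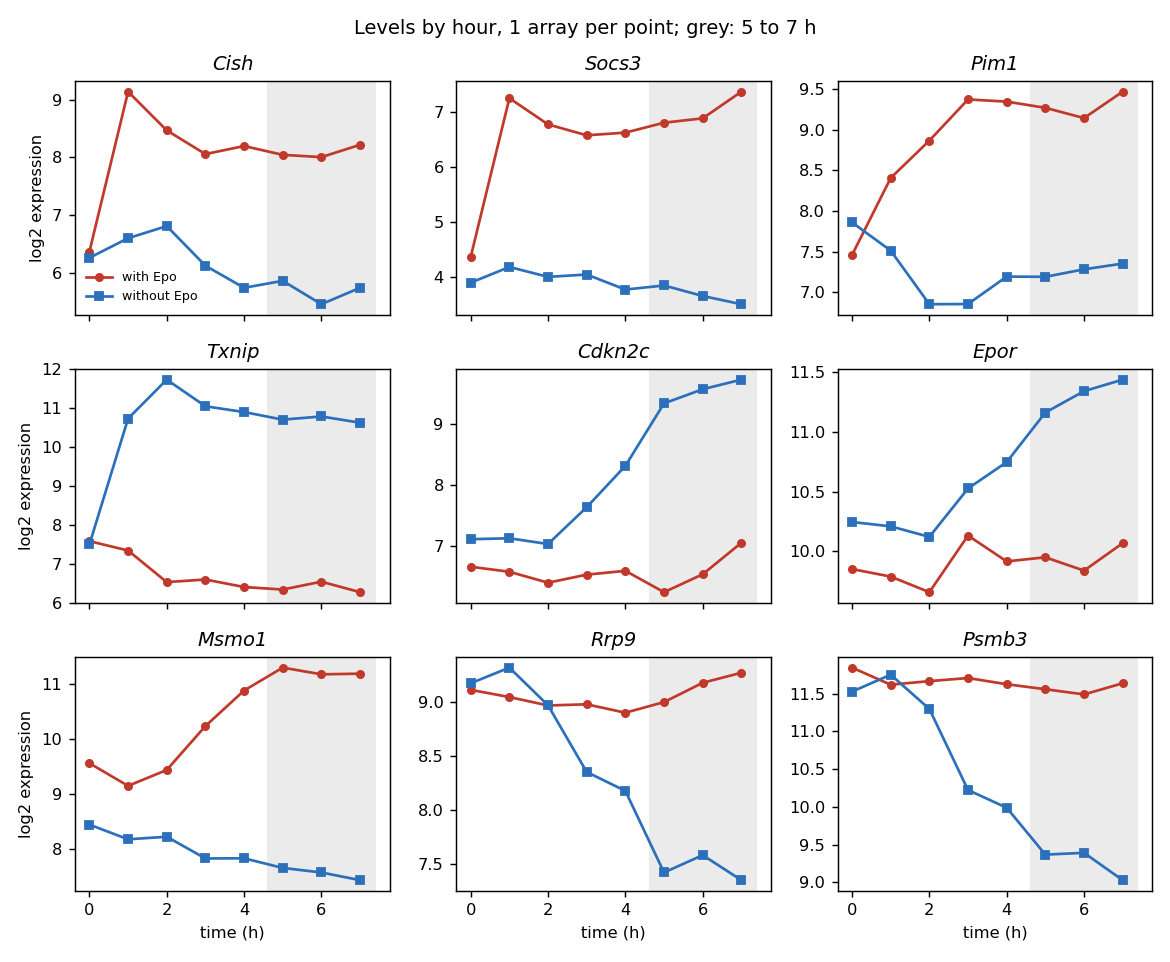
Log2 expression of 9 genes against time, 1 array per point, with Epo (red circles) and without Epo (blue squares), 5 to 7 h shaded grey. Cish and Socs3 are high with Epo from 1 h on, Txnip is high without Epo from 1 h on, and Epor, Cdkn2c, Rrp9 and Psmb3 part mainly after 2 h, through the arrays without Epo.

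FOXO factors and their target genes, which AKT restrains, were lower with Epo or did not pass the test. Txnip, which encodes an inhibitor of thioredoxin and of glucose uptake, read 6.34, 6.54 and 6.27 with Epo and 10.71, 10.79 and 10.63 without. Its difference of -4.33 ± 0.08 (adjusted p = 1.5e-10), 20.1-fold higher without Epo, followed levels at 0 h that differed by 0.09 (7.58 and 7.49). Ccng2, a cyclin gene that slows the cycle, read 5.67, 5.81 and 5.81 with Epo and 9.16, 9.02 and 9.12 without. Tsc22d3, a gene also known as a glucocorticoid response gene, differed by -3.16 ± 0.19, but only a dim probe set without a cross-hybridisation suffix exists for it here, and that one stood at 0.22 (adjusted p = 0.262). Its brighter other probe sets, with such suffixes, gave -2.66 and -0.51. Of the 28 FOXO genes and targets measured, none was higher and 17 were lower with Epo, 12 of them at least 2-fold (median -0.69, and -0.07 at 0 h). Foxo3 itself was among them (-1.88 ± 0.11). From the 0 h start, 15 of the 28 were lower and 2 higher.

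The genes that halt the cell cycle showed the same direction. Cdkn2c, the CDK4 and CDK6 inhibitor p18, read 6.25, 6.54 and 7.06 with Epo and 9.34, 9.57 and 9.73 without (-2.93 ± 0.10, adjusted p = 2.04e-09), with no overlap of the arrays. Gadd45g, a growth arrest gene, differed by -3.55 ± 0.11 and Btg1, an antiproliferative gene, by -2.76 ± 0.09. For Btg1 the call was not kept with probe sets free of cross-hybridisation suffixes (-0.36, adjusted p = 0.0511). The only such probe set was dim (mean level 3.82), and the brighter other probe set of Btg1, with a suffix, gave -2.94. Of 19 CDK inhibitors and antiproliferative genes, 14 were lower with Epo and 2 higher (median -0.78, and -0.12 at 0 h). Of 13 KLF family genes, 10 were lower and 1 higher (median -1.24, and 0.06 at 0 h), with Klf10 at 7.17, 7.24 and 7.24 with Epo and 10.71, 10.62 and 10.66 without, Klf6 at -3.002 ± 0.12 and Klf11 at -2.38 ± 0.11. Levels with Epo of Klf10, Gadd45g and Btg1 lay within 0.5 of their 0 h array on average, so the difference lay in the arrays without Epo.

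Genes of cell death and survival were divided. Bbc3, the BH3-only killer PUMA, read 5.78, 6.03 and 6.16 with Epo and 8.59, 8.65 and 8.73 without (-2.66 ± 0.10, adjusted p = 3.14e-09). Bnip3, a mitophagy receptor gene, was higher with Epo (1.46 ± 0.10), after a difference of 0.83 at 0 h. The survival genes Mcl1 (-1.36 ± 0.06) and Bcl2l1, which encodes BCL-XL (-1.001 ± 0.08), were lower with Epo. Bcl2l1 read 8.20, 8.28 and 8.30 with Epo and 9.17, 9.22 and 9.39 without, above the 0 h arrays of 7.73 and 7.82 in both series. Of its 3 other probe sets, those with a clear signal gave -1.10 and -1.08 and the dimmest 0.06. The pro-apoptotic list of 17 genes held 3 higher and 6 lower ones (median -0.05), but the median was 0.01 with the mean of all probe sets, 0.03 without 6 h and 0.08 relative to 0 h. The anti-apoptotic list of 14 held 4 and 7 (median -0.33), with a median of 0.08 for probe sets free of cross-hybridisation suffixes.

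Cholesterol synthesis was the gene group with the highest median difference of the 38 pathway lists. Of 21 genes measured, 19 were higher with Epo and 1 lower, 15 at least 2-fold higher (median 1.48, against 0.04 over all genes). Idi1, the isomerase that makes dimethylallyl diphosphate, read 11.94, 12.01 and 12.10 with Epo and 9.29, 9.26 and 8.96 without (2.85 ± 0.09, adjusted p = 1.41e-09), with no overlap. Hmgcs1, which encodes the enzyme that makes HMG-CoA, differed by 2.44 ± 0.10 and Fdft1, squalene synthase, by 2.16 ± 0.10. Of the 3 other Fdft1 probe sets the bright one gave 1.83 and the dim ones -0.13 and 0.04. At 0 h the list stood at a median of 0.43, in the series that also held more hepatocyte transcripts. From the 0 h start, 13 of the 21 were higher and none lower, with a median of 1.11. For the 12 hepatocyte markers the median from that start was -0.26 and none was called. The part of liver transcripts in the cholesterol list was not tested. The median change of the 21 cholesterol genes from 0 h was 0.81 with Epo and -0.26 without.

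Genes of fatty acid synthesis were higher with Epo for 11 of 16 and lower for 2 (median 0.78, and -0.24 at 0 h). Fasn, fatty acid synthase, read 9.05, 9.27 and 10.06 with Epo and 6.99, 7.04 and 7.07 without (2.43 ± 0.15), from 8.61 and 8.997 at 0 h. The Fasn arrays did not overlap, and those with Epo lay above their 0 h level while those without lay below it. Acsl3, an acyl-CoA synthetase gene, differed by 2.12 ± 0.14, and Me1, malic enzyme, a source of NADPH, by 1.73 ± 0.12.

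Genes for making ribosomes and for breaking down proteins were mostly higher with Epo. Of 40 ribosome biogenesis genes, 29 were higher with Epo and 4 lower (median 0.62, and -0.34 at 0 h), and from the 0 h start 31 were higher and 1 lower. Rrp9, a component of the U3 complex that processes ribosomal RNA, read 8.999, 9.18 and 9.27 with Epo and 7.42, 7.58 and 7.35 without (1.70 ± 0.10, adjusted p = 4.86e-08). Its 0 h arrays read 9.11 and 9.17, and the arrays with Epo stayed near that level. Bop1 (1.43 ± 0.11) and Wdr74 (1.26 ± 0.09), both of which act in assembly of the large subunit, followed. Over the list the median change from 0 h was 0.02 with Epo and -0.96 without. Of 31 proteasome subunit genes, 25 were higher and 3 lower (median 0.61, and 0.17 at 0 h), with Psmb3, of the core particle, at 11.56, 11.49 and 11.64 against 9.37, 9.39 and 9.03, and the cap subunits Psmc1 at 1.46 ± 0.08 and Psmd1 at 1.36 ± 0.09.

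Of 23 purine and pyrimidine synthesis genes, 12 were higher and 6 lower (median 0.36). Of 18 translation factors 5 were higher and 7 lower (median 0.01, and -0.28 at 0 h), while from the 0 h start 7 were higher and 1 lower (median 0.24), with Eif3d at 1.35 ± 0.09 and Eef1e1 at 1.54 ± 0.06. Among 19 aminoacyl tRNA synthetases 3 were higher and 8 lower (median -0.18, and -0.38 at 0 h), against 18.4% and 21.5% of all genes. From the 0 h start 4 were higher and 2 lower (median 0.25), against 7.95% and 11.4%. Rars, for arginine, was higher (1.74 ± 0.11), as was Farsb, for phenylalanine (1.11 ± 0.09), whereas Aars, for alanine, was lower (-1.56 ± 0.08). Of 28 genes of oxidative phosphorylation and the TCA cycle, 13 were higher and 10 lower (median 0.10), and all 4 at least 2-fold were higher, among them the complex I subunit Ndufb8 (2.15 ± 0.06) and the ATP synthase subunit Atp5c1 (1.74 ± 0.06). A second, dimmer probe set gave only 0.38 for Ndufb8 (mean level 5.44) and 0.64 for Atp5c1 (mean level 3.88). Podxl, the sialomucin podocalyxin, Ogt, the O-GlcNAc transferase, Ada, adenosine deaminase, and Ppa1, pyrophosphatase, were higher by 2.73, 2.54, 2.26 and 2.15. For each of these 4 the arrays without Epo were more than 2 below their 0 h level.

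**Figure D4:**
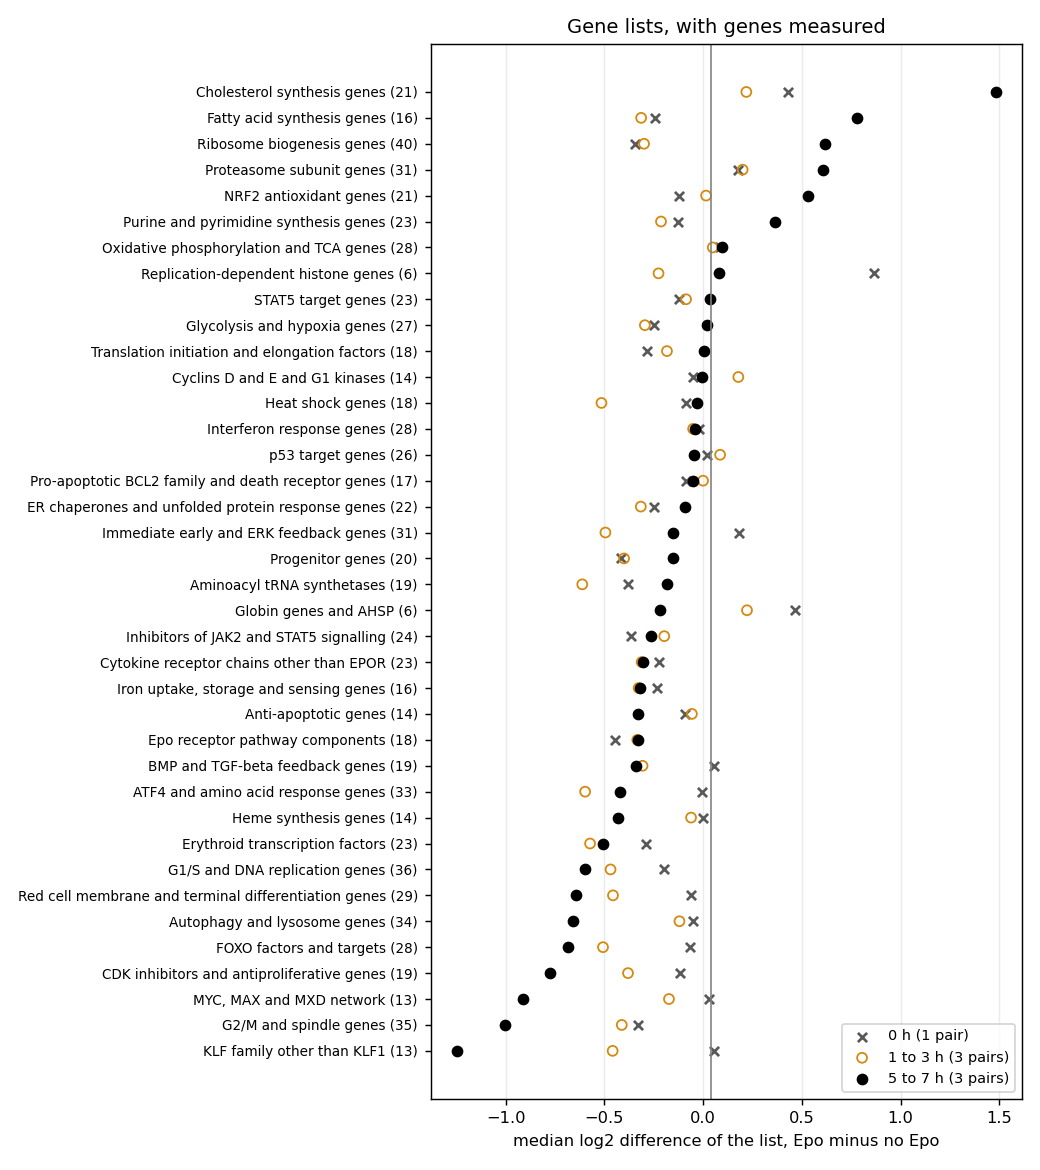
Median log2 difference, Epo minus no Epo, of 38 pathway lists (number of genes measured in brackets) at 0 h (crosses, 1 pair of arrays), 1 to 3 h (open circles) and 5 to 7 h (filled circles); the vertical line is the median of all genes at 5 to 7 h, 0.04. Cholesterol synthesis is highest at 1.48 and the KLF family lowest at -1.24, and for ribosome biogenesis and fatty acid synthesis the open circles lie below 0 and the filled ones above it.

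Most proliferation genes measured were lower in the cells with Epo than in those without. Of 35 genes of G2/M and the spindle, 30 were lower and 1 higher with Epo, 18 of them at least 2-fold lower (median -1.002, and -0.33 at 0 h). Nusap1, a spindle protein gene, read 8.83, 8.64 and 8.75 with Epo and 11.16, 11.40 and 11.62 without (-2.65 ± 0.10, adjusted p = 2.73e-09), from 9.11 and 9.17 at 0 h, so the arrays without Epo were far above their start. The other Nusap1 probe set, at a mean level of 4.21, gave only -0.32. Kif11, a spindle motor, differed by -2.47 ± 0.09 and Aurkb, a mitotic kinase, by -1.76 ± 0.08. Of 36 genes of G1/S and DNA replication, 24 were lower and 5 higher (median -0.60), with Gins3, of the replicative helicase, at 6.05, 6.01 and 6.22 with Epo and 8.87, 8.87 and 8.81 without, Uhrf1 at -2.51 ± 0.08 (-0.98 at 0 h), Cdc6, which licenses origins, at -2.02 ± 0.08, and E2f2 at -1.63 ± 0.10. From the 0 h start, 23 of the 35 and 17 of the 36 were lower and none was higher, against 11.4% and 7.95% of all genes. Among 14 D and E cyclins and G1 kinases, 6 were higher and 5 lower. Ccnd2, cyclin D2, was higher (1.03 ± 0.11, from -0.79 at 0 h) and Cdk2 was lower (-1.63 ± 0.09). The Cdk2 value rested on a probe set with a cross-hybridisation suffix. The only one without a suffix gave -0.04 (adjusted p = 0.818). Its mean level of 1.86 was near the lowest value measured, so it cannot decide for or against the difference.

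Most erythroid regulators and red cell genes measured were also lower with Epo. Of 23 erythroid transcription factors, 18 were lower and 2 higher (median -0.51, and -0.29 at 0 h). From the 0 h start 9 of the 23 were lower and 1 higher (median -0.26). Gata1, the master regulator of the lineage, read 10.18, 10.38 and 10.64 with Epo and 11.11, 11.23 and 11.37 without (-0.83 ± 0.07, adjusted p = 7.34e-07), with no overlap. Gfi1b differed by -1.82 ± 0.08, Klf3 by -1.81 ± 0.09 and Zbtb7a by -1.77 ± 0.11, all repressors that act in this lineage. Kit, the stem cell factor receptor that is switched off as red cells mature, read 5.38, 5.11 and 4.999 with Epo and 8.05, 7.98 and 8.08 without, 7.33-fold higher without, after -1.40 at 0 h, and its other probe set gave -2.27. Here the arrays with Epo lay below their 0 h level of 6.99. Of 20 progenitor genes 2 were higher and 8 lower (median -0.15), but the median was -0.42 at 0 h, and relative to that start 3 were higher and 3 lower (median 0.15). Of 29 membrane and terminal differentiation genes, 19 were lower and 1 higher (median -0.65). The water channel gene Aqp1 read 6.92, 6.31 and 5.97 with Epo and 8.83, 8.77 and 8.71 without, and with Epo it lay below its 0 h level of 8.60. Ache, acetylcholinesterase, which sits on the red cell surface, differed by -2.95 ± 0.14.

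Heme synthesis genes were lower with Epo for 9 of 14 and higher for 3 (median -0.43, and 0.00 at 0 h). The mitochondrial carriers Abcb10, at 8.48, 8.71 and 9.05 with Epo and 10.87, 10.91 and 11.29 without, and Slc25a38 (-1.41 ± 0.07), which serves glycine import, were lower, whereas Alas1, the housekeeping form of the first enzyme, was higher (0.94 ± 0.11). Of 6 globin genes measured, 2 were higher and 3 lower (median -0.22, and 0.46 at 0 h). The embryonic Hba-x was lower (-1.15 ± 0.10) and the embryonic Hbb-bh1 higher (0.81 ± 0.08). The latter difference was 1.30 at 0 h, and relative to it the value was -0.49 (adjusted p = 0.0642). Of 16 iron genes 3 were higher and 9 lower (median -0.32, and -0.23 at 0 h). From the 0 h start 1 was higher and 2 lower (median -0.05), against 7.95% and 11.4% of all genes. The 9 lower genes include Ncoa4, the ferritin receptor of autophagy (-1.34 ± 0.07).

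Of 34 autophagy and lysosome genes, 21 were lower with Epo and 5 higher (median -0.66, and -0.05 at 0 h), among them the initiation genes Atg14 (-2.42 ± 0.12), Ulk1 (-1.42 ± 0.14) and Atg9a (-1.64 ± 0.12), and Flcn, folliculin (-2.17 ± 0.10). In the ATF4 and amino acid response, 19 of 33 genes were lower and 6 higher (median -0.42). Ddit3, the stress factor CHOP, read 8.41, 8.63 and 8.99 with Epo and 11.57, 11.52 and 11.55 without, from 6.51 and 6.39 at 0 h, so both series stood above their start and the one without Epo far more (-2.87 ± 0.10). The other Ddit3 probe set, at a mean level of 6.75, gave only -0.36. Atf3 (-1.39 ± 0.13) and Cebpg (-1.37 ± 0.09) pointed the same way. Of 21 NRF2 antioxidant genes, 14 were higher and 4 lower (median 0.53, and -0.12 at 0 h), led by Srxn1 and including Gsta4, a glutathione transferase (1.33 ± 0.08).

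Among 31 immediate early and ERK feedback genes, 12 were lower and 6 higher, 10 of them at least 2-fold lower (median -0.15, and 0.18 at 0 h). Ier2 (-2.54 ± 0.08), Ier5 (-2.25 ± 0.09) and the RNA decay factor Zfp36l1 (-2.06 ± 0.09) were also lower, and without Epo they stood above their 0 h array. Jun, an AP-1 subunit, read 4.98, 5.10 and 5.19 with Epo and 8.07, 7.97 and 7.82 without, while the 0 h array with Epo had been the higher one (6.96 against 4.94). Myc overlapped between the groups, at 9.03, 8.85 and 8.75 with Epo and 9.15, 8.94 and 8.999 without (-0.15 ± 0.08, adjusted p = 0.164), whereas of its network of 13 genes 8 were lower and 1 higher (median -0.91). From the 0 h start 6 of the 13 were lower and 3 higher (median -0.35). With the mean of all probe sets the median at 5 to 7 h was -0.44. The MYC antagonists Mxi1 (-1.91 ± 0.09) and Mxd3 (-1.87 ± 0.10) were lower, and Max was lower too (-1.73 ± 0.10) but by -1.69 already at 0 h.

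The sign of the list median changed with the probe set rule, the filter on dim genes, the scaling or an hour left out for the p53, heat shock, interferon, glycolysis, translation factor, progenitor, G1 cyclin, STAT5 target, pro-apoptotic and anti-apoptotic lists. The counts that follow stand against 18.4% of all genes higher and 21.5% lower with Epo, and from the 0 h start against 7.95% and 11.4%. The p53 list of 26 targets held 10 higher and 10 lower genes (median -0.05), and 2 and 7 from the 0 h start, with Trp53inp1 at -1.61 ± 0.14. Of 28 interferon response genes 4 were higher and 8 lower (median -0.04), and 1 and 4 from the 0 h start, with Gbp3 at -2.47 ± 0.13 and Usp18, which restrains interferon signalling, at -2.37 ± 0.12. The glycolysis and hypoxia list of 27 held 9 higher and 9 lower genes (median 0.02), and 9 and 5 from the 0 h start. Of 22 ER chaperone genes 6 were higher and 9 lower (median -0.09, and -0.25 at 0 h), and from the 0 h start 6 and 4 (median 0.10). Of 18 heat shock genes 5 were higher and 4 lower (median -0.03), and again 5 and 4 from the 0 h start (median 0.12). Hspa1a was lower with Epo (-0.94 ± 0.18) and Hspa1b read 5.64, 6.40 and 6.98 with Epo and 7.24, 6.73 and 6.29 without (-0.42 ± 0.30, adjusted p = 0.313). These 2 genes are near-identical copies, their signal could be shared, and at 0 h both stood higher on the array with Epo, by 3.06 and 2.03. Of 19 BMP and TGF-beta feedback genes 3 were higher and 8 lower, 5 of them at least 2-fold (median -0.34, and 0.05 at 0 h), and from the 0 h start none was higher and 6 were lower (median -0.51). Of 6 histone genes 2 were higher and 1 lower.

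The difference at 5 to 7 h was in part a later one. When it was set against the difference at 1 to 3 h in one fit of 12 arrays, 2189 genes (12.0%) changed, 911 (5.01%) toward higher and 1278 (7.02%) toward lower values with Epo. For 1274 of them the difference grew with the same sign, for 111 it shrank and for 804 it had the opposite sign in the 2 windows. At 1 to 3 h alone, 3071 genes (16.9%) were called, 1470 higher (8.08%) and 1601 lower (8.80%) with Epo, and 523 of the 780 higher and 671 of the 1291 lower genes of the later window were among them in the same direction. The count of 2189 depends on single hours: without the arrays of 6 h it was 313 toward higher and 408 toward lower values, and 716 of the 2189 genes were called again. Without 5 h the counts were 658 and 713, without 7 h 417 and 691, and without the early arrays of 2 h 472 and 765.

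Cish stood at 2.05 at 1 to 3 h and 2.41 at 5 to 7 h, and this change of 0.36 was not called (adjusted p = 0.415). Neither were those of Socs3 (2.80 and 3.36), Pim1 (1.80 and 2.01) and Txnip (-4.35 and -4.33). Socs2 in contrast grew from 0.65 to 2.68 (adjusted p = 0.00242) and Csf2rb from -0.36 to 2.70 (adjusted p = 0.00211). Of the 40 ribosome biogenesis genes, 3 were higher and 15 lower at 1 to 3 h, and 29 changed toward higher values by 5 to 7 h. Of the 21 cholesterol synthesis genes, 14 changed toward higher values, as did 17 of 31 proteasome genes, 9 of 16 fatty acid genes and 9 of 18 heat shock genes, against 5.01% of all genes. Toward lower values, against 7.02% of all genes, changed 16 of 35 G2/M genes, 15 of 36 G1/S genes, 11 of 34 autophagy genes, 8 of 19 CDK inhibitors and antiproliferative genes, 7 of 28 FOXO genes and 7 of 29 membrane genes. The sign itself turned for Rrad, a small GTPase gene, which stood at 1.56 at 1 to 3 h and -1.58 at 5 to 7 h (adjusted p of the change = 0.000214). It was, with Polr3g (1.01 and -0.88), named here after its value was seen, 1 of 2 genes called at least 2-fold at 1 to 3 h and called in the opposite direction later. Of the 683 genes called at least 2-fold at 1 to 3 h, 27 were not called at 5 to 7 h.

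**Figure D5:**
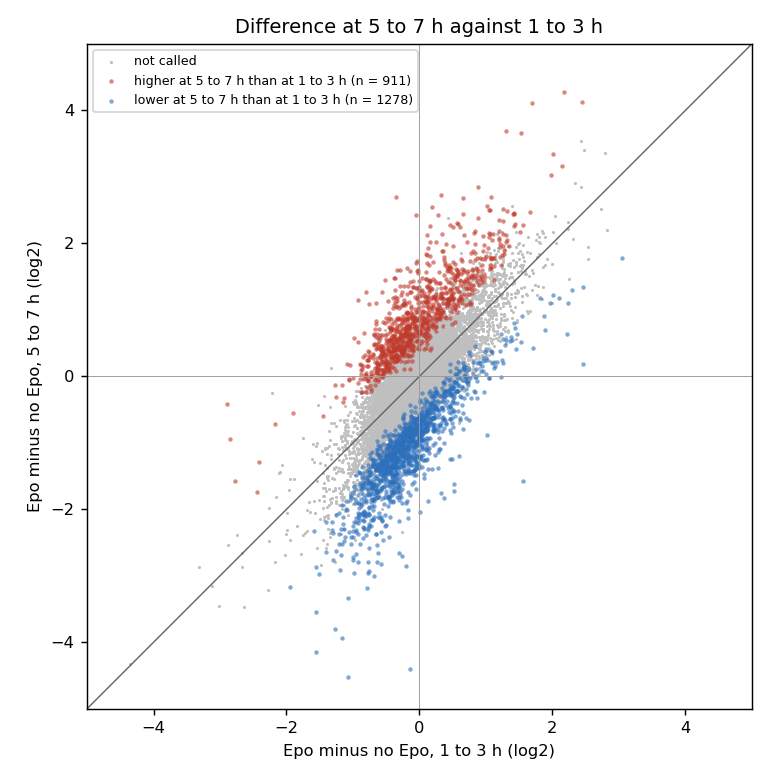
Log2 difference, Epo minus no Epo, at 1 to 3 h (horizontal axis) and 5 to 7 h (vertical axis) for 18193 genes, 3 pairs of arrays each; the line marks equal differences. Red marks 911 genes and blue 1278 genes whose difference changed toward higher and lower values; red lies above the line and blue below it.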

How the data were processed

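The deposited table gave log2 values, as their range of 1.37 to 14.6 shows. The sources used here do not give how the authors summarised and scaled probe intensities. No column belonged to another sample (0 columns). Of 45101 probe sets, 34958 had 1 gene symbol in the platform annotation, 932 several and 9211 were unnamed here. Each of 18193 genes took its probe set with the highest mean over 20 arrays, with no filter on dim genes. Of 2487 other probe sets of genes called at least 2-fold, 2009 (80.8%) pointed the same way.

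Differences were fitted with limma 3.58.1 in R 4.3.3 (empirical Bayes with trend), on the 6 arrays of 5 to 7 h with the hour as a block, on 8 arrays against the 0 h difference, and on 12 arrays against 1 to 3 h. P-values were Benjamini-Hochberg adjusted over all 18193 genes and called under 0.05. An exact permutation test of 3 against 3 arrays, used for the control probe sets, cannot give less than 0.10. On simulated data with 18193 genes, the paired fit recovered 68% of genes changed by 0.5 and 100% of those changed by 1, the fit against 0 h 18% and 64%, and the fit against 1 to 3 h 40% and 98%. The number of unchanged genes called was 13, 14 and 11. The simulation used independent normal noise with the spread of the paired fit, 50 changed genes for each size and no offset between the series. Its counts therefore need not hold for these arrays, where controls differed between the series.

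The gene lists and the named genes were chosen with earlier results of these data known. Those results were known too when the 6 arrays were set, by treatment and hour alone. Of 1051 list entries 107 matched no gene tested. Named genes are from the 15 largest called differences each way, up to 4 per list, 10 each way for each other fit, and a fixed set of pathway genes. Marker genes and those said to be named after their values were seen are exceptions. The 15 largest each way were taken among genes with the same sign in all 3 pairs. Genes known only by a clone, predicted or Riken name were left unnamed. Alternatives were other normalizations, probe set rules, variance models, hours left out, unpaired hours and other early windows. Probe sets with a suffix of a, s or x were all counted as having a cross-hybridisation suffix. Promoters came from RefSeq (GRCm38.p6). Tables were made with pandas 2.3.3 and numpy 2.4.6 under Python 3.11.15, and plots with matplotlib 3.10.9.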

Additional observations from a re-analysis of the deposited data

Results flagged for a closer look

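For 70 of the genes named here the difference between the series at 5 to 7 h differed from that at 1 to 3 h in the fit of 12 arrays (limma, adjusted p under 0.05). The values below are the later minus the earlier difference on the log2 scale, 3 pairs of arrays in each window. As stated with the counts over all genes, fewer genes are called when the arrays of 6 h are left out, and no cause was tested.

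The change was toward higher values with Epo for the signalling genes Csf2rb (3.06), Socs2 (2.02) and Akt1 (1.39). Among lipid synthesis genes it was 2.13 for Msmo1, 1.97 for Idi1, 1.78 for Hmgcs1, 1.34 for Fdft1, 2.15 for Fasn and 1.44 for Acsl3. Among genes of ribosome assembly and protein synthesis it was 1.58 for Rrp9, 1.52 for Bop1, 1.12 for Wdr74, 1.77 for Rars, 1.13 for Farsb, 1.45 for Eif3d and 0.96 for Eef1e1. The proteasome genes Psmb3, Psmc1 and Psmd1 changed by 1.73, 1.26 and 1.54, and the respiratory genes Ndufb8 and Atp5c1 by 1.11 and 1.10. For Fhl1, Ccnb1ip1, Gdf3, Podxl and Ogt the changes were 2.11, 2.42, 2.38, 2.41 and 2.36. For Ada, Ppa1, Gsta4 and Ccnd2 they were 2.11, 1.81, 0.99 and 1.33. Hspa1a, Hspa1b and Mpo also changed upward, by 1.90, 2.48 and 1.46, from early differences of -2.84, -2.90 and -2.17.

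The change was toward lower values with Epo for Relb (-4.26), Klhl24 (-3.46), Rrad (-3.14), Cyp1a1 (-2.60), Ndrg1 (-2.52) and Polr3g (-1.89). For the growth arrest genes it was -2.26 for Ccng2, -1.99 for Gadd45g, -2.17 for Cdkn2c, -1.45 for Btg1 and -2.31 for Klf6. The receptor genes Epor and Kit changed by -0.94 and -1.32, the kinase gene Jak2 by -0.96, and the survival genes Bcl2l1 and Mcl1 by -0.9995 and -0.94. Cell cycle genes changed by -1.76 (Gins3), -1.30 (Uhrf1), -2.03 (Nusap1), -1.33 (Kif11), -1.11 (Aurkb) and -1.19 (Cdk2). Red cell and heme genes changed by -1.72 (Aqp1), -2.17 (Ache), -1.51 (Abcb10), -1.33 (Slc25a38), -1.04 (Hba-x), -0.62 (Hbb-bh1), -0.64 (Ncoa4) and -0.51 (Klf1). The remaining ones were Flcn (-1.33), Atg9a (-1.26), Aars (-0.95), Cebpg (-0.94), Mxd3 (-2.001), Trp53inp1 (-2.14) and Usp18 (-1.45).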

How the results depend on the processing

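Without the hour as a block, 3274 genes were higher and 3809 lower with Epo, 780 and 1291 of them at least 2-fold, and the pairing changed no count by more than 1.5 times. The counts were 1266 and 1818 relative to 0 h and 671 and 922 for the change from 1 to 3 h. Deviations of same-hour arrays from their group means correlated at 0.08, 0.03 and 0.13 across genes, so the hour is shared but the arrays hardly vary together. Leaving out 1 hour gave 2444 to 3411 higher and 3203 to 4018 lower genes, and at least 2-fold 784 to 794 and 1200 to 1395. Relative to 0 h it gave 905 to 2111 and 1419 to 2658, and for the change from 1 to 3 h 313 to 658 and 408 to 713 (without 7 h 417 and 691). That last count also moved with other early windows: 472 higher and 765 lower without 2 h, 796 lower with 1 to 4 h, and 1475 higher without 3 h. The 0 h counts moved to 285 higher with the brighter genes only and to 59 lower with the mean of all probe sets. Genes at least 1 away from 0 h with Epo only or without Epo only numbered 24 and 210 (higher), 25 and 384 (lower) with 1 to 3 h as the start, and 36 to 44, 386 to 422, 47 to 59 and 601 to 626 with 1 hour left out. The starts of 1 to 3 h and the early windows without 1 h or 3 h were chosen after seeing the data.

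Of 1327 recomputed values of 112 named genes, 1317 kept direction and side of the threshold. The direction turned for Stat5a (0.12 with quantile normalization, 0.12 without 5 h), Hspa1b (0.18 without 5 h), Hba-a1 (0.0286 without 7 h) and Tsc22d3 (0.22 without cross-hybridising probe sets). Quantile normalization, which moved the share of higher calls from 46.1% to 50.1%, turned none of the 7253 called genes. The mean of all probe sets turned 200 of the 7253, and probe sets without cross-hybridisation suffixes turned 236 of the 6514 that could be compared. The number of arrays and the dimness of a probe set limit the precision, and the cause of these changes was not tested.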

Other observations

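Among the 780 genes at least 2-fold higher with Epo, 51 lay at least 1 below their 0 h array in both series, and 42 of them stood at least 1 higher with Epo already at 0 h. They include the hepatocyte products Ttr, transthyretin, and Apoa2, an apolipoprotein of HDL. Ttr read 12.68 at 0 h and 11.01, 10.54 and 10.09 at 5, 6 and 7 h with Epo, and 10.93 and then 8.70, 8.45 and 8.32 without. Its difference was thus 1.74 at 0 h and 2.05 ± 0.10 at 5 to 7 h. Apoa2 differed by 1.80 at 0 h and by 2.001 ± 0.12 later. For both, the difference relative to 0 h was not called (0.31 with adjusted p = 0.331, and 0.20 with adjusted p = 0.659).

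Mpo, myeloperoxidase of granulocyte precursors, was lower with Epo at 0 h (7.62 against 9.88) and at 5 to 7 h (-0.71 ± 0.15). Over 13 granulocyte markers the median difference was -0.46 at 0 h and 0.03 at 5 to 7 h. Relative to 0 h, 5 of them were called higher with Epo, against 7.95% of all genes.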
